A study of Mus musculus with 2 samples.

Results

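The potassium channel genes described here are the 96 genes whose mouse symbol is Kcn followed by further letters and a number, with symbols that end in os or Rik left out. Names such as Kcnmb4os1, which end in a number, are kept by this rule. They are 96 of the 32285 genes in the count tables. They encode 93 channel subunits, pore-forming or auxiliary, and 3 non-coding transcripts that share the symbols: Kcnq1ot1, Kcnmb4os1 and Kcnmb4os2.

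Potassium channels let potassium leave a cell along its gradient, which holds the resting potential, ends action potentials and sets firing rate. In glia, inward rectifiers and tandem-pore (K2P) leak channels carry potassium away from active axons, and in microglia and macrophages leak and calcium-activated channels set the membrane potential during surveillance and phagocytosis. Pore subunits of voltage-gated (Kv), inward rectifier, K2P, and calcium- or sodium-activated channels differ in what opens them, and auxiliary subunits such as the KChIP proteins (Kcnip genes) change how many pores reach the membrane and how fast they inactivate.

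Nuclei came from the spinal cord of C57BL/6 wild-type mice aged 6 to 8 weeks, 7 days after a contusion at thoracic level 10 made with a 5 g rod of 1 mm diameter dropped from 6 cm. Both groups were injured and injected into the tail vein on 5 consecutive days: the PBS group with 100 µL of buffer, the AEVs group with 100 µL holding 100 µg of protein of athlete-derived extracellular vesicles. The study held 6 mice, and the nuclei of the 3 mice of a group form 1 library, so no mouse can be told from another and there was no uninjured group. With 1 library per group no test between groups was possible: levels are CPM, the UMIs (molecules counted once by their barcode) of a gene per 1000000 UMIs of a class, and ratios are AEVs over PBS with exact 95% intervals that cover counting error only, not the spread between mice.

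After filtering, 14023 PBS nuclei with 73085370 UMIs and 15549 AEVs nuclei with 68103073 UMIs remained, with medians of 2600 and 2400 UMIs. Clusters were named from marker genes. The classes compared most closely were neuron-like (3520 PBS and 4704 AEVs nuclei), oligodendrocyte-like (4492 and 5509), astrocyte-like (948 and 1144), microglia-like (783 and 1010) and oligodendrocyte precursor-like (454 and 385). The lipid phagocyte-like class, myeloid nuclei with Gpnmb among their leading genes, held 831 and 814. Gpnmb also led the macrophage-like class (580 and 326 nuclei). A shallow neurofilament-led cluster (730 and 343 nuclei) was held apart from the neurons. The libraries share 170 cell barcodes. RNA from broken nuclei can give UMIs in nuclei that do not make it. Over both libraries, 10 neuronal markers were found in oligodendrocyte-like nuclei at a median of 0.0356 of their neuronal level. The median was 0.0399 in microglia-like, 0.0810 in astrocyte-like and 0.312 in ependymal-like nuclei. A neuronal channel at such a share elsewhere is read as background.

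Of the 96 genes, 76 had at least 100 UMIs in the kept nuclei, 21 of them at least 10000. A further 19 had 1 to 99 UMIs, and Kcna7 had 0 of 141188443, which allows up to 0.0212 CPM. The 19 were Kcna3, Kcna10, Kcne1, Kcne2, Kcne3, Kcnh3, Kcnj1, Kcnj4, Kcnj5, Kcnj15, Kcnk7, Kcnk15, Kcnk16, Kcnk18, Kcnmb1, Kcnmb3, Kcnmb4os1, Kcnmb4os2 and Kcnv2. Kcnip4, a KChIP that tunes Kv channels of the Kcnd family, took 27.3% of all UMIs of the 96 genes, and the 5 genes with the most took 57.6%. By role, 30 voltage-gated pore subunits took 43.5% of these UMIs, 12 Kv auxiliary subunits 32.1%, 8 calcium- or sodium-activated pores 10.2%, 15 inward rectifiers 4.28%, 14 K2P channels 2.87%, 4 BK auxiliary subunits 1.21% and 10 silent Kv subunits, which form channels only with other subunits, 0.405%. The 3 non-coding transcripts took 5.40%. Nuclear UMIs may include introns, and these genes were long: the 76 had a median gene length of 47.3 kb, against 24.2 kb for all genes with that many UMIs. Levels are therefore compared within a gene and not between genes.

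Of these 76 genes, 30 had their highest level in neuron-like nuclei, 11 in oligodendrocyte precursor-like, 8 in ependymal-like, 7 in astrocyte-like, 5 each in Schwann-like and fibroblast-like, 3 each in endothelial-like and lipid phagocyte-like, 2 each in microglia-like and oligodendrocyte-like, and 0 in macrophage-like nuclei. Here and below, highest levels were sought in these classes only. The neurofilament-led cluster and the small mural-like and T or NK cell-like classes were left out. Kcnab2 and Kcnk9, counted as neuron-like at 46.6 and 47.0 CPM over both libraries, reached 240 and 290 in the neurofilament-led cluster. Others, such as Kcnb2 (664 and 59.8), were lower there. Kcnj8 was counted as endothelial-like at 62.0, though mural-like nuclei held more. Glia held defined sets. Kcnj10, the inward rectifier through which astrocytes take up potassium, stood at 397 CPM over both libraries in astrocyte-like nuclei and at 181 in oligodendrocyte-like nuclei. Kcnq3, a subunit of the slow M-current channel known from axon initial segments, was highest in oligodendrocyte-like nuclei at 863, ahead of precursors at 591. Kcna1, a Kv subunit that clusters beside the nodes of myelinated axons, was highest in Schwann-like nuclei at 921, then in oligodendrocyte-like nuclei at 485. Kcnk13, a K2P channel known from microglia, was at 280 in lipid phagocyte-like and 262 in macrophage-like nuclei. Kcnd2, the pore of the A-type current, reached 3288 in oligodendrocyte precursors against 2239 in neurons.

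**Figure D1:**
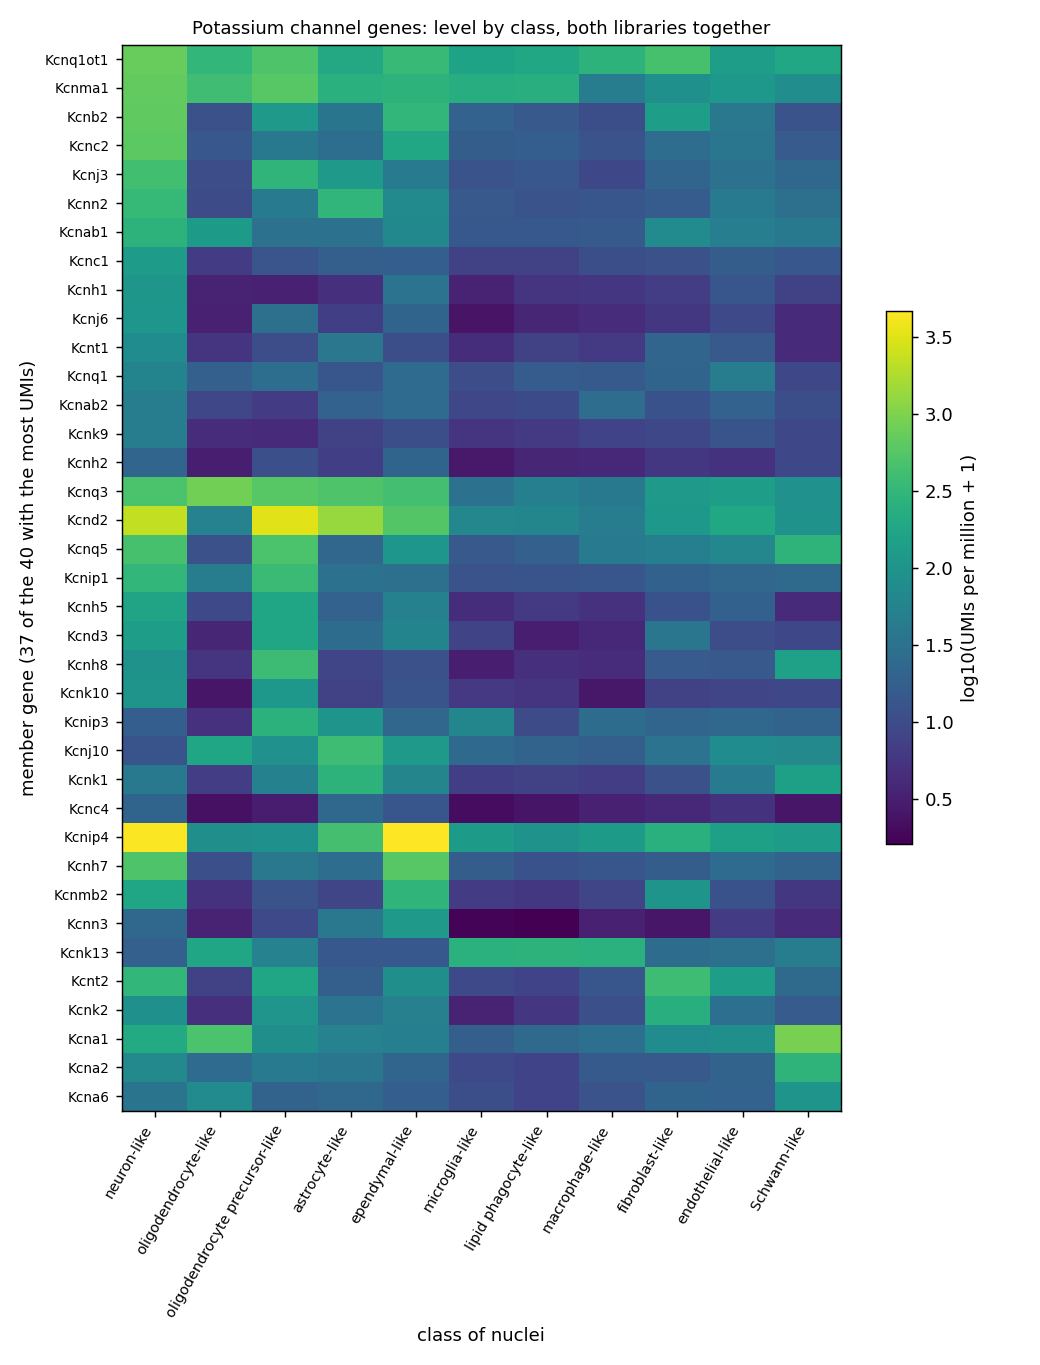
Heat map of the level of 37 of the 40 genes with the most UMIs (rows) in each class of nuclei (columns), both libraries together, as log10 of CPM plus 1. The upper rows are brightest in neurons, and lower rows in other classes, such as Kcnq3 in oligodendrocyte-like nuclei (863), Kcnj10 in astrocyte-like nuclei (397) and Kcna1 in Schwann-like nuclei (921).

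The comparison between groups asks how the injured cord of vesicle-injected mice differed from that of buffer-injected mice. Summed over the 96 genes, neuron-like nuclei had 15139 CPM in PBS and 14596 in AEVs, oligodendrocyte-like nuclei 2964 and 3172, astrocyte-like nuclei 5175 and 4603, and microglia-like nuclei 1529 and 1284. A gene is called past 1.5-fold where its ratio lies above 1.5 or below the inverse of 1.5 and the libraries together give at least 100 UMIs. In neuron-like nuclei 4 of 70 such channel genes were past it upwards, against 9.0% of all 15553 genes, and 7 downwards, against 4.74%. In oligodendrocyte-like nuclei 3 of 31 were higher (12.7% of all 10981 genes) and 2 lower (4.43%). In oligodendrocyte precursors 5 of 29 were higher (6.65% of 5668) and 5 lower (7.15%). In astrocyte-like nuclei 3 of 36 were higher (5.29% of 9716) and 5 lower (3.50%). In microglia-like nuclei 0 of 7 were higher (9.34% of 5117) and 2 lower (4.73%).

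Upwards, the shares of channel genes lay on either side of the background. Downwards, they were above it in each of the 5 classes: 10% in neuron-like, 6.45% in oligodendrocyte-like, 17.2% in precursor-like, 13.9% in astrocyte-like and 28.6% in microglia-like nuclei. All rest on small counts. Of the 2 lower in oligodendrocyte-like nuclei 1 was the non-coding Kcnq1ot1, as was 1 of the 2 in microglia-like nuclei. Among channel genes at 0.25 or more of the level in their highest class, 4 of 59 were lower in neuron-like and 2 of 10 in oligodendrocyte-like nuclei. There were 0 of 18 in precursor-like, 3 of 19 in astrocyte-like and 1 of 3 in microglia-like nuclei. The share of all genes held to that level was not counted. Whether the list as a whole is set apart was not tested. Median log2 ratios of the channel genes beside those of all genes were -0.03 and 0.10 in neuron-like, 0.13 and 0.12 in oligodendrocyte-like, 0.17 and 0.02 in precursor-like, -0.25 and 0.03 in astrocyte-like and -0.06 and 0.01 in microglia-like nuclei. Ratios followed gene length over all genes: in neuron-like nuclei the median log2 ratio was 0.26 for genes under 20 kb, 0.06 from 20 to 100 kb and -0.12 above, and the channel genes of these bins had 0.08, -0.02 and -0.07. In oligodendrocyte-like nuclei all genes had 0.28, 0.08 and -0.11, and the 4, 10 and 17 channel genes 0.49, -0.17 and 0.19. In astrocyte-like nuclei all genes had 0.12, 0.02 and -0.09, and the 5, 13 and 18 channel genes -0.57, -0.38 and 0.02. The part of length in any single ratio was not tested.

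**Figure D2:**
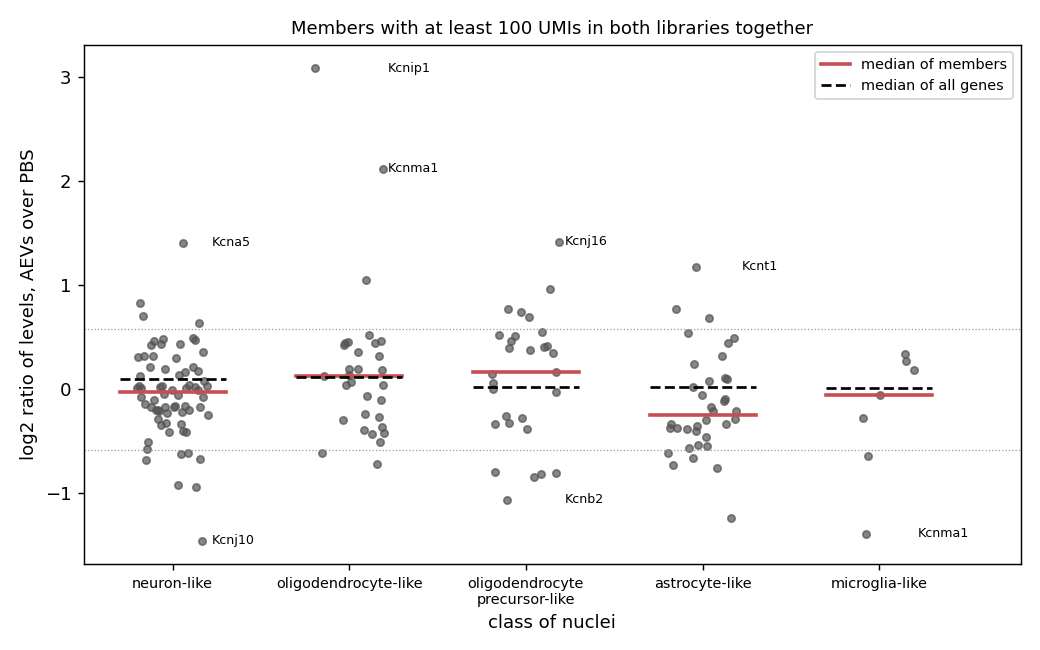
Log2 ratio of levels, AEVs over PBS, of each channel gene with at least 100 UMIs over both libraries (points) in 5 classes of nuclei, some of those beyond 2-fold named. Red lines are the medians of the channel genes, dashed black lines those of all genes and dotted lines mark 1.5-fold. Most points lie within the dotted lines, and Kcnip1 (3.09) and Kcnma1 (2.12) in oligodendrocyte-like nuclei lie farthest above.

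Where a gene held at least 0.25 of the level it reached in its highest class, Kcnma1 in oligodendrocyte-like nuclei had the ratio farthest from 1 in these 5 classes. Kcnma1 (chr14:23289431-24014491, minus strand, mm10) encodes the pore of the BK channel, a large-conductance channel opened by calcium together with depolarisation. In oligodendrocyte-like nuclei it had 1816 UMIs in PBS and 8148 in AEVs, or 150.6 and 655.1 CPM, a ratio of 4.35 (4.13 to 4.58). A Kcnma1 UMI was found in 24.3% of PBS and 57.9% of AEVs nuclei. With each nucleus thinned to 1000 UMIs, which left out 183 PBS and 333 AEVs nuclei, these shares were 12.97% and 43.8%. The AEVs library was thus the higher in level and in the share of nuclei with the transcript.

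The Kcnma1 difference was present in each of the 4 oligodendrocyte-like clusters. In cluster 13, led by the prostaglandin synthase gene Ptgds, levels were 227.5 and 1088 CPM, 4.78-fold higher in AEVs. Cluster 2, led by Apod, had 191.5 and 673.2, 3.52-fold higher. In cluster 16, whose leading genes include Klk6, Kcnma1 was low in both libraries, at 30.2 and 101.3, with a ratio of 3.36. The small cluster 23, of 44 and 51 nuclei, had 232 and 1130. Over the 12 alternative settings the log2 ratio for the class lay between 1.98 and 2.15. Neurons are the other main source of the transcript. Relative to neuron-like nuclei of the same library, oligodendrocyte-like nuclei had 0.190 of the Kcnma1 level in PBS and 1.09 in AEVs, while the 10 neuronal markers had medians of 0.0368 and 0.0331 and did not exceed 0.0789 in either library.

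Kcnip1, a KChIP partner of Kcnd channels, had the highest ratio in the same nuclei but from a low level. It had 116 UMIs in PBS and 1018 in AEVs, 9.62 and 81.9 CPM, a ratio of 8.51 (7.01 to 10.4). Kcnip1 is named here after its values were seen, since it stayed at 0.13 of its level in the class where it is highest. The difference was uneven among clusters. Cluster 13 had 43 and 795 Kcnip1 UMIs, 17.6-fold (12.9 to 24.5) higher in AEVs. In cluster 2 the counts were 42 and 176, a ratio of 3.73, and in cluster 16 they were 31 and 36, a ratio of 1.24 (0.743 to 2.06). Against neurons of the same library, Kcnip1 in oligodendrocyte-like nuclei stood at 0.0288 in PBS, within the range of the neuronal markers, and at 0.276 in AEVs, above it. Kcnip4, a neuronal KChIP with far more UMIs and a longer gene, stayed at 0.0175 and 0.0196.

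Kcnq3 and the non-coding Kcnq1ot1 went the other way. Kcnq3 (chr15:65986387-66286642, minus strand) had 12976 and 8157 UMIs, or 1076 and 655.9 CPM, 1.64-fold lower in AEVs with a ratio of 0.609 (0.593 to 0.627). Its level was lower in each of the 3 large clusters, most in cluster 16 (1196 and 593.5, log2 ratio -1.01), then cluster 2 (-0.72) and cluster 13 (-0.46). In thinned nuclei a Kcnq3 UMI was found in 59.9% of PBS and 42.1% of AEVs nuclei, and unthinned in 81.5% and 60.9%. With doublets kept, its log2 ratio was -0.55, no longer past 1.5-fold, and over the other 11 settings it lay between -0.85 and -0.70. Elsewhere Kcnq3 differed less: 503 and 478 in neuron-like, 567 and 492 in astrocyte-like and 634 and 530 in precursor-like nuclei. Kcnq1ot1, a long imprinted transcript from the opposite strand of Kcnq1, had 381 and 250 in oligodendrocyte-like nuclei.

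**Figure D3:**
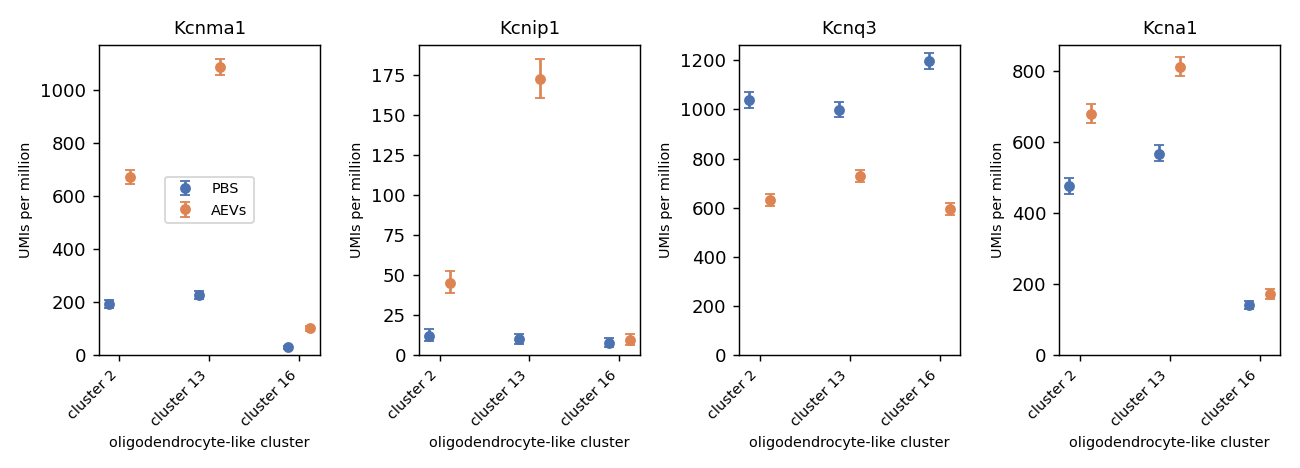
Levels in CPM (vertical axes, from 0) of 4 channel genes in the 3 large oligodendrocyte-like clusters, PBS in blue and AEVs in orange, with 95% counting intervals. Kcnma1 is higher in AEVs in all 3 clusters, Kcnip1 mainly in cluster 13, Kcnq3 lower in all 3, and Kcna1 higher by 1.43-fold, 1.43-fold and 1.23-fold in clusters 2, 13 and 16.

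Among the other channels of oligodendrocyte-like nuclei, Kcna1 had 396.9 and 571.2 CPM, a ratio of 1.44 (1.39 to 1.49), just under the limit. Kcnab1, a cytoplasmic beta subunit of Kv channels, had a ratio of 1.38. It overlaps the opposite-strand transcript A330015K06Rik, which had 9857 and 15424 UMIs in these nuclei. The inward rectifier Kcnj10 had 187 and 175, a ratio of 0.933, Kcnk13 had 197 and 154, and Kcna6 82.9 and 67.8. Kcna2, the usual partner of Kcna1, had 296 and 314 UMIs, a ratio of 1.03.

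The oligodendrocyte markers themselves summed to 21430 CPM in PBS and 20535 in AEVs. Of the lists of other cell types, neuronal markers summed to 498 and 569 in these nuclei (7 of 10 higher), precursor markers to 399 and 389 (5 of 9 with enough UMIs higher), Schwann markers to 1217 and 1214, fibroblast markers to 61.5 and 26.4 and lipid phagocyte markers to 1956 and 2726 (5 of 8 higher). Erythroid markers summed to 33.3 and 95.6, with 5 of 5 higher. The part of these lists in the channel ratios was not tested.

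Kcnma1 was lower in AEVs in the myeloid classes, opposite to its direction in oligodendrocytes. Microglia-like nuclei had 432 UMIs in PBS and 200 in AEVs, 346 and 132 CPM, 2.62-fold lower (ratio 0.382, 0.321 to 0.453). Thinned to 1000 UMIs, 27.4% and 11.9% of these nuclei held a Kcnma1 UMI, against 37.7% and 16.0% unthinned. Thinning left out 98 and 110 nuclei. The log2 ratio lay between -1.53 and -1.03 over 12 settings. Lipid phagocyte-like nuclei had 653 and 148 UMIs, 370 and 101 CPM, 3.68-fold lower. With doublets kept and nuclei clustered anew, that log2 ratio went from -1.88 to -0.39, inside 1.5-fold, and in the other 11 settings it stayed past it. Macrophage-like nuclei had 47.8 and 42.6 and so no such difference beyond counting error. Beside these values, the lipid phagocyte markers summed to 8636 and 16504 in microglia-like nuclei, macrophage markers to 111 and 201 with Cd163 and Lyve1 at 0, oligodendrocyte markers to 1307 and 929 and fibroblast markers to 128 and 44.3. Their part in the Kcnma1 difference was not tested.

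Other classes set these values in context. Neuron-like nuclei had 794 and 599 CPM of Kcnma1, a ratio of 0.754 (0.742 to 0.767), and each of the 7 neuronal groups was lower in AEVs, with ratios from 0.705 in dorsal-type excitatory to 0.859 in the small Nos1-positive cholinergic group, whose interval reached 1.05. Oligodendrocyte precursors had 533 and 681, a ratio of 1.28 (1.17 to 1.40). Astrocyte-like nuclei had 255 and 247, with a ratio of 0.966 (0.885 to 1.05), equal within counting error, and log2 ratios from -0.22 to 0.13 over 12 settings. In endothelial-like nuclei Kcnma1 had 41 and 119 UMIs, a ratio of 2.20 (1.53 to 3.21), and in fibroblast-like nuclei 78.7 and 108 CPM. Summed over all nuclei Kcnma1 was at 574 and 539, and this sum did not show the opposite directions of the classes. By level, AEVs oligodendrocyte-like nuclei (655) stood beside AEVs precursors (681) with overlapping intervals, whereas in PBS they (151) were below microglia-like (346) and lipid phagocyte-like nuclei (370).

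**Figure D4:**
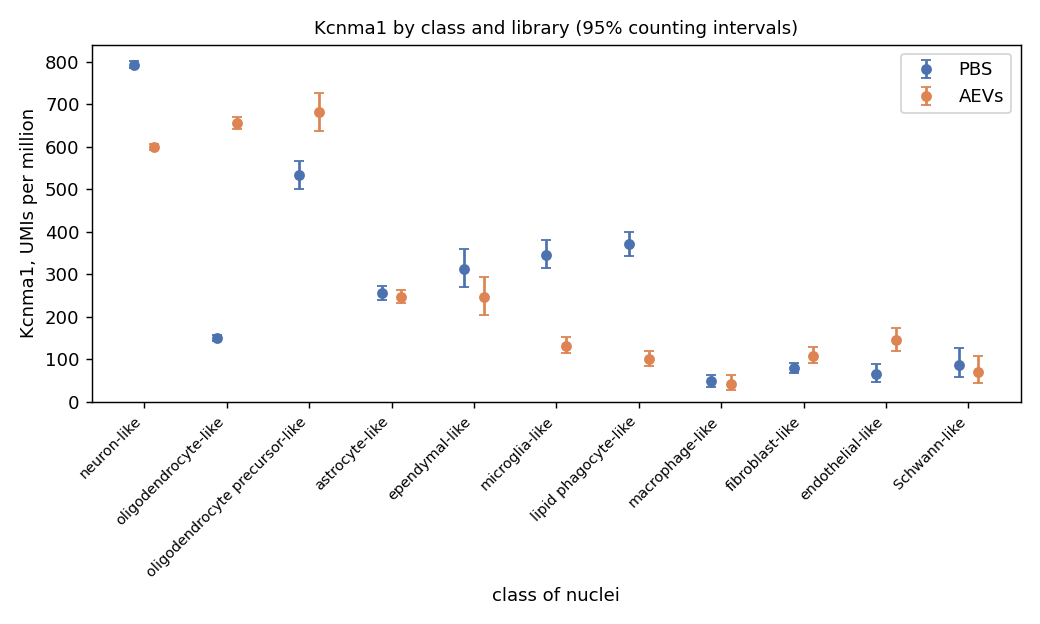
Level of Kcnma1 in CPM (vertical axis, from 0) in 11 classes of nuclei, PBS in blue and AEVs in orange, with 95% counting intervals. AEVs are higher in oligodendrocyte-like nuclei (655.1 against 150.6) and lower in neuron-like (599 against 794), microglia-like (132 against 346) and lipid phagocyte-like nuclei (101 against 370).

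The other channel genes of myeloid nuclei differed less. Kcnk13 had 243 and 277 CPM in microglia-like nuclei, a ratio of 1.14 (0.979 to 1.32), 267 and 296 in lipid phagocyte-like and 245 and 292 in macrophage-like nuclei. All 3 intervals held a ratio of 1. Kcnk6, a K2P channel of the TWIK type, had 102 and 97.8 in microglia-like nuclei. Kcnj2, a strong inward rectifier, had 53.3 and 49.7 in lipid phagocyte-like nuclei. Channels known from activated microglia were hardly seen: Kcna3 had 0 and 1 UMIs in microglia-like nuclei, where a count of 0 allows up to 2.40 CPM in PBS, and Kcnn4 had 4 and 7. In macrophage-like nuclei Kcnn4 had 18 and 3 UMIs, a ratio of 0.303 (0.0572 to 1.04). Kcnq1ot1 was lower in all 3 classes, with 201 and 129 CPM in microglia-like, 240 and 135 in lipid phagocyte-like and 336 and 164 in macrophage-like nuclei.

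In astrocyte-like nuclei the inward rectifier gene Kcnj10 was lower and the leak channel gene Kcnk1 higher in AEVs, each by just under 1.5-fold. Both had their highest level in these nuclei, and the 250 bases before their annotated starts are shown because their levels went in opposite directions. The sequences are from RefSeq on GRCm38.p6, plus strand, with the GC box (GGGCGG on either strand, so CCGCCC as read here) in capitals. They lie at chr1:172340960-172341209 for Kcnj10 and chr8:125994852-125995101 for Kcnk1.
Kcnj10: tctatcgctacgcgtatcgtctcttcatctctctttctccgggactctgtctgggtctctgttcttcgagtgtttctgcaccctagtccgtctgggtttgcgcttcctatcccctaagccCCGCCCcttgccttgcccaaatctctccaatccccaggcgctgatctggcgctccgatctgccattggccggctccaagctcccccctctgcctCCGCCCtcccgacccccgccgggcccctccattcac
Kcnk1: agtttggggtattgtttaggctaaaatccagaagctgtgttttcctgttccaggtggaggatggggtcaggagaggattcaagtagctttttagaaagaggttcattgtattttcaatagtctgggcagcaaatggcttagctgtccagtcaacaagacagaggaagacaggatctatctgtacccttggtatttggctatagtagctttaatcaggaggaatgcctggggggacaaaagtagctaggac
The Kcnj10 stretch has 62.0% G and C, 2 GC boxes and 2 CCAAT motifs. The Kcnk1 stretch has 44.4% G and C and neither motif, and neither stretch holds TATAAA. In the 250 bases before the start, GGGCGG was found on either strand in 32.7% of 32851 promoters. For the 95 promoters of 70 channel genes the share was 45.3%. CCAAT was found in 33.9% of all and 29.5% of channel gene promoters, and TATAAA in 12.4% and 3.16%. The median G and C content of all promoters was 52.4%. A match describes letters only.

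Kcnj10 had 1876 UMIs in PBS and 1371 in AEVs in astrocyte-like nuclei, 474 and 325 CPM, a ratio of 0.686 (0.639 to 0.736). It was lower in both astrocyte clusters, the Gfap-led cluster 3 (290.5 and 229.2) and cluster 14 (581 and 394). Its log2 ratio lay between -0.60 and -0.29 over 12 settings and was past 1.5-fold in 2 of them. Kcnj16, which forms mixed channels with Kcnj10, had 98.3 and 77.8, a ratio of 0.791 (0.681 to 0.919). Its log2 ratio lay between -0.49 and 0.03 over 12 settings, and doublets kept gave the value above 0. Within cluster 3 the Kcnj16 levels were equal within counting error, at 50.7 and 48.1. Kcnk1 had 227 and 320, a ratio of 1.41 (1.30 to 1.54), and was higher in AEVs in cluster 3 (145 and 224) and in cluster 14 (275 and 390). Thinned shares went the same way: 35.1% and 25.7% of nuclei had a Kcnj10 UMI (64.5% and 50.9% unthinned), and 21.5% and 26.3% a Kcnk1 UMI (48.4% and 54.7% unthinned). Thinning left out 140 PBS and 172 AEVs nuclei.

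**Figure D5:**
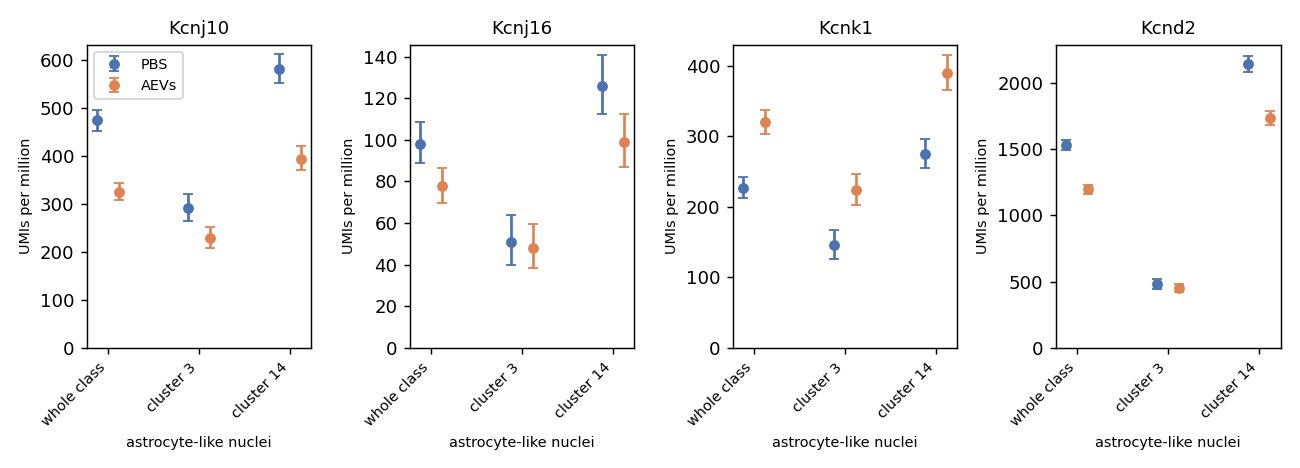
Levels in CPM (vertical axes, from 0) of 4 channel genes in the whole astrocyte-like class and in its clusters 3 and 14, PBS in blue and AEVs in orange, with 95% counting intervals. Kcnj10 is lower and Kcnk1 higher in AEVs in both clusters, while Kcnj16 (50.7 and 48.1) and Kcnd2 (482 and 449) overlap in cluster 3.

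The other astrocyte channels were mixed. Kcnd2 had 1532 and 1199 CPM, a ratio of 0.783, with 2145 and 1740 in cluster 14 and 482 and 449 in cluster 3. Kcnn2, a small-conductance calcium-activated channel, had 269 and 337, a ratio of 1.25, and its relative Kcnn3 had 37.1 and 39.4. The sodium-activated channel gene Kcnt1 had 89 and 215 UMIs, a ratio of 2.27 (1.76 to 2.94). Kcne1l, a single-pass auxiliary subunit, had 70.2 and 47.4, a ratio of 0.675. The 3 genes past 1.5-fold upwards were Kcnt1, Kcnb2 (104 and 178 UMIs) and Kcnc2 (80 and 146 UMIs). The latter pair stood at 0.052 and 0.044 of their neuronal levels, within the range of the neuronal markers in these nuclei. The 5 downwards included Kcna6, Kcnc1 and the silent subunit Kcng4. Beside the inward rectifiers, the astrocyte markers summed to 16885 in PBS and 14141 in AEVs, with 3 of 10 higher. The water channel gene Aqp4 had 2235 and 1469, the glutamate transporter gene Slc1a2 4117 and 3269, and the gap junction gene Gja1 851 and 759. The lipid phagocyte list, which holds Apoe and other genes that astrocytes make, summed to 13896 and 18784. The part of these markers in the channel ratios was not tested.

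In neurons the channel genes with the most UMIs, Kcnip4 and Kcnd2, were nearly level between groups, and some others with many UMIs differed more. Kcnma1 was lower in AEVs, at 794 and 599 CPM, a ratio of 0.754. Kcnip4 had 4435 and 4536 CPM in neuron-like nuclei, a ratio of 1.02 (1.02 to 1.03) whose log2 value lay between -0.10 and 0.05 over 13 settings, below 0 with TMM or the median of ratios, and its pore partner Kcnd2 had 2232 and 2246, a ratio of 1.01. Kcnh7, an Erg-type channel, had 521 and 530. Kcnd3, an A-type relative of Kcnd2, had 134 and 138. The G protein-gated inward rectifier subunits Kcnj3 (428 and 407) and Kcnj6 (110 and 98.3) were slightly lower, and their relative Kcnj9 was higher at 10.2 and 14.2. The delayed rectifier gene Kcnb2 had 712 and 613 and the M-current gene Kcnq5 490 and 427. Kcnc1 had 139 and 120, Kcnc2 597 and 658, and Kcnmb2, an inactivating BK subunit, 192 and 172. Both sodium-activated channel genes were higher in AEVs, Kcnt1 with 68.7 and 84.6 (1.23) and Kcnt2 with 282 and 352 (1.24). The mechanosensitive K2P gene Kcnk2 had 73.9 and 99.8, a ratio of 1.35.

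Kcna2 and Kcnab2, parts of the Kv complex of axons, were among the 7 lower genes. Kcna2 had 3745 UMIs in PBS and 2202 in AEVs, 82.2 and 51.3 CPM, a ratio of 0.624 (0.592 to 0.658), and 62.4 and 47.9 CPM in thinned nuclei, inside 1.5-fold. Kcnab2, the beta subunit that guides Kcna channels to the axon, had 56.2 and 36.5, a ratio of 0.649 (0.609 to 0.692). Kcna1 had 235 and 178, a ratio of 0.755, short of the limit. The neurofilament-led cluster held Kcna1 at a high level, 1022 and 514, and was kept out of the neuron-like class. Counting it with the neurons gave 4 higher and 8 lower genes, and the shares of all genes were not counted for this setting. The other 5 genes past 1.5-fold downwards were Kcnj12, Kcnj14, Kcng4, Kcnj16 and Kcnj10. All 7 had a higher level over both libraries in the neurofilament-led cluster than in neuron-like nuclei. The ratio of these levels ran from 2.71 for Kcnj12 to 44.4 for Kcnj14, with 3.48 for Kcna2 and 5.16 for Kcnab2. Kcna1, short of the limit, had 4.14. The part of such nuclei in the lower ratios was not tested. The glial Kcnj10 had 783 and 269 UMIs in neuron-like nuclei, 561 and 74 of them in the unresolved neurons. Astrocyte markers in neuron-like nuclei summed to 1281 and 1010, with 0 of 10 higher and a median log2 ratio of -1.15, and oligodendrocyte markers to 933 and 517. With doublets kept, the Kcnj10 log2 ratio in neurons went from -1.46 to -0.27, inside 1.5-fold.

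On the higher side were 4 sparse genes. Kcna5, a Kv subunit, had 118 and 296 UMIs in neuron-like nuclei, a ratio of 2.66 (2.14 to 3.32), and was past 1.5-fold under all 13 settings. Kcns1 and Kcnf1, silent Kv subunits, had 115 and 193 UMIs (1.78) and 108 and 158 (1.55), and the Erg-type Kcnh6 had 114 and 175 (1.63). In thinned nuclei these 3 were no longer past 1.5-fold, with log2 ratios of 0.035 for Kcns1, 0.21 for Kcnf1 and 0.18 for Kcnh6, and Kcnf1 was past it in 8 of 13 settings. Each of these 4 was at most 6.90 CPM in either library. With the libraries scaled by TMM or by the median of ratios, 3 were higher and 9 lower, in place of 4 and 7. These scalings move the median of all genes from 0.10 to near 0 in neurons. The shares of all genes past 1.5-fold were not counted under them.

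The remaining members were mostly neuronal and sparse. By role, the 9 silent Kv subunits with at least 100 UMIs in neuron-like nuclei had a median log2 ratio of 0.42, against -0.01 for the 26 voltage-gated pores, 0.03 for the 7 auxiliary Kv subunits, -0.17 for the 10 inward rectifiers and -0.22 for the 8 K2P channels. Among the silent subunits, Kcng2 had 617 and 780 UMIs (1.34), Kcns2 4.13 and 5.80 CPM (1.41), Kcnv1 66 and 86 UMIs (1.38) and Kcng1 54 and 59 (1.16), whereas Kcns3 had 995 and 873 (0.931), Kcng3 100 and 91 (0.966), and Kcng4 was lower. The silent subunits thus lay on both sides of 1. Kcnip2, a KChIP with few UMIs beside Kcnip4, had 694 and 915 (1.40). Among the pores, the Eag-type Kcnh1 had 5222 and 4292 UMIs (0.872), Kcnh5 7779 and 7381 (1.01), Kcnh2 969 and 886 (0.970), the A-type Kcna4 581 and 553 (1.01), Kcnc4 857 and 905 (1.12) and Kcnh4 88 and 66 (0.796). The acid-sensitive K2P gene Kcnk3 had 745 and 592 (0.843), Kcnk12 792 and 652 (0.874) and the mechanosensitive Kcnk4 195 and 194 (1.06). Kcnj11, the neuronal pore of the ATP-sensitive channel, had 183 and 153 (0.887), the small-conductance Kcnn1 154 and 148 (1.02) and Kcnu1, known from sperm, 136 and 164 (1.28). Of these, only Kcng4 was past 1.5-fold. The auxiliary gene Kcne4 and the K2P gene Kcnk5 had their highest level in fibroblast-like nuclei, with 22 and 17 and with 135 and 58 UMIs, and Kcnk5 had a ratio of 0.851 (0.614 to 1.17) there.

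Neuronal groups differed widely in the levels of several channel genes. The GABAergic group with low Slc6a5, the glycine transporter gene, held it at 25.5 to 87.9 CPM in its 4 subclusters, below every subcluster of the glycinergic group (104.0 to 292.2). GABAergic nuclei (279 and 451 nuclei) had the highest Kcnc2, with 1761 and 1659 CPM, against 834 and 710 in dorsal-type excitatory nuclei (1312 and 2033 nuclei), 471 and 564 in glycinergic nuclei (864 and 1178), 240 and 334 in other excitatory nuclei (264 and 364) and 63.5 and 75.8 in cholinergic nuclei (64 and 43). The order was the same in both libraries. Kcnt2 had 1121 and 1120 in the GABAergic, 401 and 423 in the dorsal-type 143 and 181 in the glycinergic and 142 and 167 in the other excitatory group. The latter pair were closer to each other than their libraries were. Kcnd2 had 4112 and 3927 in the GABAergic group, 2357 and 2334 in the dorsal-type, 2311 and 2172 in the glycinergic and 706 and 508 in the cholinergic group. Dorsal-type and glycinergic nuclei were thus neighbours for Kcnd2. Kcnmb2 had 694 and 485 in the GABAergic group and 4.33 and 1.68 in the cholinergic group. Cholinergic nuclei, which include motor neurons, had the highest Kcnab1, 661 and 654, and 145 and 97.6 of the K2P gene Kcnk9. The Nos1-positive cholinergic group had 13 and 21 nuclei, too few to place.

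Between the libraries, 3 of 55 genes were past 1.5-fold upwards in dorsal-type excitatory nuclei, against 8.87% of all genes, and 1 downwards, against 2.20%. Kcnk2 had 77.9 and 123 CPM there, a ratio of 1.58 (1.46 to 1.70), Kcna5 had 65 and 166 UMIs (2.24), and Kcnab3, a beta subunit, 89 and 196 (1.94). The lower gene was Kcnd1, with 64 and 44 UMIs. Kcnq5 had 667 and 445 CPM in this group, a ratio of 0.667 (0.646 to 0.689) that just missed the limit, while the whole neuron-like class had 0.873. In glycinergic nuclei 3 of 58 were higher, against 9.69%, and 4 lower, against 1.55%. The higher were Kcnf1, Kcnh6 and Kcnmb4. The lower included Kcna2 (107.5 and 66.4 CPM, ratio 0.618), Kcnj12 (81 and 44 UMIs) and Kcng4 (75 and 50). Kcnab2 had 63.4 and 42.8 CPM there. In other excitatory nuclei Kcna2 had 118 and 74.0 and Kcnab2 78.1 and 43.9, so this pair was lower in AEVs in both groups. In dorsal-type excitatory nuclei Kcna2 had 49.9 and 39.1, a ratio of 0.784 (0.700 to 0.878), but 39.7 and 44.0 in nuclei thinned to 1000 UMIs, the other direction. Whether the ratio of a gene differed between groups of neurons was not tested.

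The leading channel genes of oligodendrocyte precursors went both ways. Kcnd2 had 2896 and 3854 CPM, a ratio of 1.33 (1.28 to 1.38). Kcnip1 had 288 and 482, a ratio of 1.67 (1.49 to 1.88), so both a pore and a KChIP partner were higher. Kcnh8, an Elk-type Kv channel, had 325 and 466 (1.43) and Kcnq5 429 and 571 (1.33), while Kcnip3 was the same in both at 268. Lower in AEVs, within 1.5-fold, were Kcnq3 (634 and 530, 0.836), Kcnq1ot1 (575 and 457, 0.794) and Kcnj3 (315 and 260, 0.824). The leak channel genes Kcnk2 (82.7 and 134, 1.62), Kcnk1 (37.6 and 73.3, 1.95) and Kcnk13 (41.6 and 71.1, 1.71) were past the limit. Kcnk10 had 101 and 133. Kcnj16 had 41 and 76 UMIs, a ratio of 2.68 (1.81 to 4.02). In thinned nuclei Kcnk2 had 130 and 156 CPM and Kcnk13 60.5 and 76.7, both inside 1.5-fold. Kcnk1 had 51.6 and 84.7 there, still more than 1.5-fold apart. Without thinning, the 5 genes past the limit downwards were Kcnb2 (302 and 100 UMIs, 2.09-fold lower), Kcnh7 (91 and 36), Kcnab1 (75 and 29), Kcna2 (104 and 41) and Kcnc2 (95 and 38). All 5 stood at no more than 0.18 of their peak class. Counting only genes with at least 0.25 of their peak, 3 were past 1.5-fold upwards (Kcnip1, Kcnk2 and Kcnj16) and 0 downwards. Kcnk1 and Kcnk13 fell below that share. The shares of all genes at that level were not counted. These counts rest on 454 and 385 nuclei. Markers of other cell types moved beside them: astrocyte markers summed to 1409 and 1767 CPM, with 9 of the 9 that had enough UMIs higher, neuronal markers to 2959 and 3684 (7 of 10 higher), oligodendrocyte markers to 4098 and 2131 (0 of 10) and those of differentiating oligodendrocytes to 5852 and 3886 (0 of 8). Kcnk1 and Kcnj16 have their highest level in astrocyte-like nuclei. The part of these markers in the channel ratios was not tested.

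Some channel genes also differed in smaller classes. In endothelial-like nuclei 4 of 8 were past 1.5-fold upwards, against 5.28% of all genes, and 0 downwards, against 5.46%. The 4 were Kcnma1, Kcnt2 (63 and 133 UMIs, 1.60), Kcnip4 (70 and 143, 1.55) and Kcnd2 (91 and 186, 1.55). In fibroblast-like nuclei 5 of 16 were higher, against 8.15%, and 1 lower, against 7.02%. The higher were Kcnd2 (200 and 223 UMIs, 2.21), Kcnd3 (68 and 65, 1.89), Kcnmb2 (191 and 174, 1.80), Kcnab1 (146 and 132, 1.79) and Kcnip4 (498 and 445, 1.77), and the lower was Kcna1 (236 and 47, 0.394). Kcnip4 and Kcnd2 stood at no more than 0.059 of their peak class in both, and neuronal markers at a median of 0.086 and 0.071 of their neuronal level. The part of free neuronal RNA in these ratios was not tested. In ependymal-like nuclei 0 of 12 were higher, against 7.34%, and 3 lower, against 9.34%: Kcnq5, Kcnd2 and Kcnc2. In Schwann-like nuclei 0 of 4 were higher, against 9.24%, and 1 lower, against 11.1%, which was Kcnq1ot1.

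The genes that lead these classes were mostly within 1.5-fold. Schwann-like nuclei (156 and 188) had Kcna1 at 1035 and 803 and Kcna2 at 274 and 304. Ependymal-like nuclei (111 and 117) had Kcnip4 at 4212 and 5253 and Kcnn3 at 99.3 and 134. The 10 neuronal markers stood in this class at a median of 0.312 and at up to 1.05 of their neuronal level. Its Kcnip4 exceeded the neuronal level in AEVs. The source of these UMIs was not tested. Fibroblast-like nuclei (982 and 544) had Kcnt2 at 405 and 373 and Kcnk2 at 230 and 280, and Kcnj13, an inward rectifier, had 47 and 42 UMIs there. Mural-like nuclei, which hold pericytes and smooth muscle, numbered 48 and 78. Kcnj8, the pore of their ATP-sensitive channel, had 53 and 51 UMIs in them, 688 and 428 CPM, a ratio of 0.623 (0.416 to 0.933). Endothelial-like nuclei had 71.2 and 55.1 of Kcnj8.

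Genes that work with these channels were listed apart: 46 genes for Na/K-ATPase pumps, cation-chloride cotransporters, HCN channels, Kv partners, BK and ATP-sensitive channel partners and astrocyte potassium buffering. In neuron-like nuclei 0 of 43 with enough UMIs were past 1.5-fold upwards (9.0% of all genes) and 4 downwards (4.74%). These 4 included the glial genes Aqp4, Gja1 and Slc1a2. In oligodendrocyte-like nuclei 1 of 34 was higher (12.7% of all genes) and 3 lower (4.43%). The higher gene was Dag1 (16.4 and 26.5 CPM). Among the lower were Hcn2, for a cation channel opened by hyperpolarisation, with 286 and 155 CPM, and Aqp4. In astrocyte-like nuclei 0 of 35 were higher (5.29% of all genes) and 4 lower (3.50%), among them Aqp4, Hcn2 and Cntn2. In oligodendrocyte precursors 2 of 27 were higher (6.65% of all genes), Lgi1 among them, and 2 lower (7.15%), Slc12a2 and Ank3. In microglia-like nuclei 0 of 19 were higher (9.34% of all genes) and 4 lower (4.73%), among them Slc12a2, Epb41l3 and Atp1b1. The Kv partner list, with Dpp6, Dpp10 and Cntnap2, had 0 of 15 in neurons and 0 of 14 in oligodendrocyte-like nuclei past the limit either way.

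The strand used in counting is not given in the sources used here, so reads of a gene and of one on its other strand cannot be told apart. Of the 96 genes, 36 overlap another gene of the count tables, 26 of them one with at least 100 UMIs. Kcnq1 and Kcnq1ot1, Kcnab1 and A330015K06Rik, Kcnd3 and Kcnd3os, and Kcnmb1, which lies within Kcnip1, are such pairs. Kcnma1 overlaps none with that many UMIs. Kcnip1 overlaps Gm12120 and 4930469K13Rik, which in oligodendrocyte-like nuclei had 1 and 6, and 5 and 9 UMIs in PBS and AEVs.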

How the data were processed

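The PBS and the AEVs library each hold nuclei of injured spinal cord from 3 pooled mice and were made with a SeekGene droplet kit for the 3-prime end of polyadenylated RNA, per the labels' protocols. The files hold unscaled UMI counts for each gene in each barcode, as deposited. The build mm10 and Seurat are named in the submitters' processing notes. How reads were aligned, which annotation and strand were counted, and whether free RNA or doublets were removed before deposit is not given in the sources used here.

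Of 15325 PBS and 17055 AEVs barcodes (82953601 and 81875882 UMIs), nuclei with at least 300 genes, 500 UMIs and under 5% mitochondrial UMIs were kept. Scrublet in scanpy 1.11.5 then removed 771 (5.21%) and 1400 (8.26%) as doublets. Counts scaled to 10000 per nucleus, 2000 variable genes without the channel genes, 30 components, 20 neighbours and Leiden clustering (leidenalg 0.10.2, resolution 1) gave the clusters, with no integration of the libraries. Clusters were named from marker lists, with at least 3 markers and the top 10 genes considered. That ranking (pseudocount 20 CPM) and the holding apart of the neurofilament-led cluster were settled after the clusters were seen. Classes rebuilt this way may differ from the authors'.

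UMIs were summed per class and library. Intervals are exact (scipy 1.17.1): Poisson for a level, conditional binomial for a ratio. They and the allowance of 3 counts for a 0 cover counting error only. The ratio intervals and the 1.5-fold call were run on counts simulated from class sums with Poisson error alone, the error the intervals assume. That simulation did not cover filtering, doublet removal, clustering, naming, thinning, scaling or the spread between mice. Alternatives covered filters, doublets, resolution, clustering genes, thinning, means over nuclei, a fixed mix of clusters, TMM (edgeR 4.0.16), median of ratios, the UMI minimum, the fold and neuron groups from marker UMIs.

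The channel genes and gene lists were chosen with earlier results of these data known. Values are given for the 5 genes with the highest level, the 5 highest and 5 lowest ratios (at least 100 UMIs and 0.25 of the highest class) and a fixed set, and genes outside this, such as Kcnip1 in oligodendrocytes, were named after their values were seen. Coordinates are from GENCODE M21, matched for 32235 of 32285 identifiers. Some members and listed genes are counted but not reported here by name.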

Additional observations from a re-analysis of the deposited data

Results flagged for a closer look

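Kcnma1, the pore of the BK channel, differed between the libraries in opposite directions in different classes of nuclei, each by more than 1.5-fold over its whole counting interval. Its log2 ratio of AEVs over PBS was 2.12 in oligodendrocyte-like nuclei and 1.14 in endothelial-like nuclei (1.135 before rounding), against -1.39 in microglia-like and -1.88 in lipid phagocyte-like nuclei. The difference between the classes was not tested, since each group is 1 library, and the value in lipid phagocyte-like nuclei was -0.39 with doublets kept. In endothelial-like nuclei 10 neuronal markers stood at a median of 0.086 and at up to 0.167 of their neuronal level. The part of free neuronal RNA in the endothelial Kcnma1 value was not tested.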

How the results depend on the processing

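No paired analysis was possible because each group is 1 library, and for the same reason no replicate could be left out. Of 617 recomputed values of 50 named ratios, 528 stayed within the counting interval of the reported value. Of 444 recomputed values of the 36 ratios past 1.5-fold, 391 were still past it the same way, and 10 ratios were so under every alternative run for them. Among these ratios 3 values changed direction, in nuclei thinned to 1000 UMIs: the log2 ratio of Kcng4 became 0.32 in astrocyte-like and 1.55 in glycinergic nuclei, and that of Kcnk12 became 0.75 in other excitatory nuclei. Among the 14 named ratios within 1.5-fold, 8 values of 3 ratios changed sign: Kcnma1 and Kcnj16 in astrocyte-like and Kcnip4 in neuron-like nuclei. The numbers of channel genes past 1.5-fold depended on the settings. The shares of all genes past it were not counted under the alternatives. With a fold of 2, 2 of the 11 in neuron-like nuclei remained in the count, 3 of 5 in oligodendrocyte-like, 2 of 10 in precursors, 2 of 8 in astrocyte-like and 1 of 2 in microglia-like nuclei. Thinning gave 5 in neuron-like, 2 in precursor-like and 2 in astrocyte-like nuclei. The same mix of clusters in both libraries gave 6 in neuron-like nuclei, 3 higher and 3 lower. A minimum of 200 UMIs gave 3 in precursors and 4 in astrocyte-like nuclei (3 higher, 1 lower). Means over nuclei gave 13 in astrocyte-like and 1 in microglia-like nuclei, and an astrocyte median log2 ratio of -0.085. Counting only genes at 0.25 or more of their highest class, chosen after seeing the data as were the neurofilament and shared-barcode alternatives, gave 3 in oligodendrocyte-like, 3 in precursor-like, 4 in astrocyte-like and 1 in microglia-like nuclei. TMM gave 3 higher and 8 lower in astrocyte-like nuclei, and moved the median of all genes from 0.12 to -0.02 in oligodendrocyte-like nuclei. With doublets kept, oligodendrocyte-like nuclei had 5 higher and 0 lower and astrocyte-like nuclei 1 higher and 7 lower. The cause was not tested. Genes under about 100 UMIs in a class are limited by depth.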
